A study of Danio rerio with 2 samples.

Results

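The genes described here are 9 genes of gluconeogenesis and of the switch between the fed and the fasted state, measured in whole zebrafish larvae. They are all the rows of the authors' gene table whose symbol is pck1, fbp1b, g6pca.1, pdk2, pdk4, ppargc1a, irs2, igfbp1b or sesn1, each with 1 row, among 29358 symbols in all. The series set homozygous lri35 mutant larvae against wild-type siblings of the same clutch, both of AB/TL strain and 5 days post fertilization, with 1 RNA library per genotype and 20 whole larvae pooled in each. The sample labels spell the allele lir35 and do not name the gene it affects, so the labels could not be checked against a targeted gene. No treatment is given in the labels, and feeding is not stated there. With 1 library per genotype there is no replicate error, so each difference below compares 2 libraries, and genotype, pool and library cannot be told apart.

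Gluconeogenesis makes glucose from lactate, glycerol and amino acids, and in vertebrates the liver is its main site. In mammals, fasting raises glucagon and glucocorticoids and lowers insulin. Together these changes increase transcription of the glucose-producing enzymes and of pyruvate dehydrogenase kinases. The kinases limit the entry of pyruvate into the citric acid cycle as acetyl-CoA. Zebrafish larvae live on their yolk at first and begin to feed at about the age sampled here.

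All values are FPKM as read from the deposited table, that is, fragment counts scaled to gene length and to the mapped fragments of the library, a scale on which levels of different genes can be compared. FPKM summed to 874244 in the mutant library and 875340 in the wild-type library, and 22504 and 22106 of 33733 rows were above 0. The absolute depth is unknown. The most common ratio among 350 rows averaging at most 0.3 FPKM put the mutant library at about 1.24 times the depth of the wild-type library. This estimate takes such rows to hold equal fragment counts in both libraries, which could not be checked, and 40.9% of them lay near that ratio. Without counts no counting interval can be given. Markers listed for tissues in which these genes are known to act had values above 0 in both libraries, with 0 of the 15 hepatocyte, 8 enterocyte, 12 kidney tubule, 12 skeletal muscle and 10 pancreatic islet markers found listed at 0. Whether each marker is confined to its named tissue in larvae was not checked.

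The 9 genes stood lower in the mutant library by moderate amounts, from 1.24-fold for sesn1 to 1.67-fold for ppargc1a. Their summed level was 817 FPKM in the mutant library and 1174 FPKM in the wild-type library, or 0.0935% and 0.134% of all FPKM. Because RNA came from whole bodies, fewer cells of a type and less RNA per cell cannot be told apart. On the scale of log2((mutant FPKM + 1)/(wild-type FPKM + 1)), used for every log2 difference below, their median was -0.51 with a range of -0.62 to -0.31. The 19112 symbols averaging at least 1 FPKM over both libraries, called measured genes below, had a median of -0.01, and 95% of them lay between -1.10 and 1.06. Since the 9 genes were picked with earlier results of these libraries known, that all 9 lay below 0, against 50.9% of measured genes, is a description and no more.

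**Figure D1:**
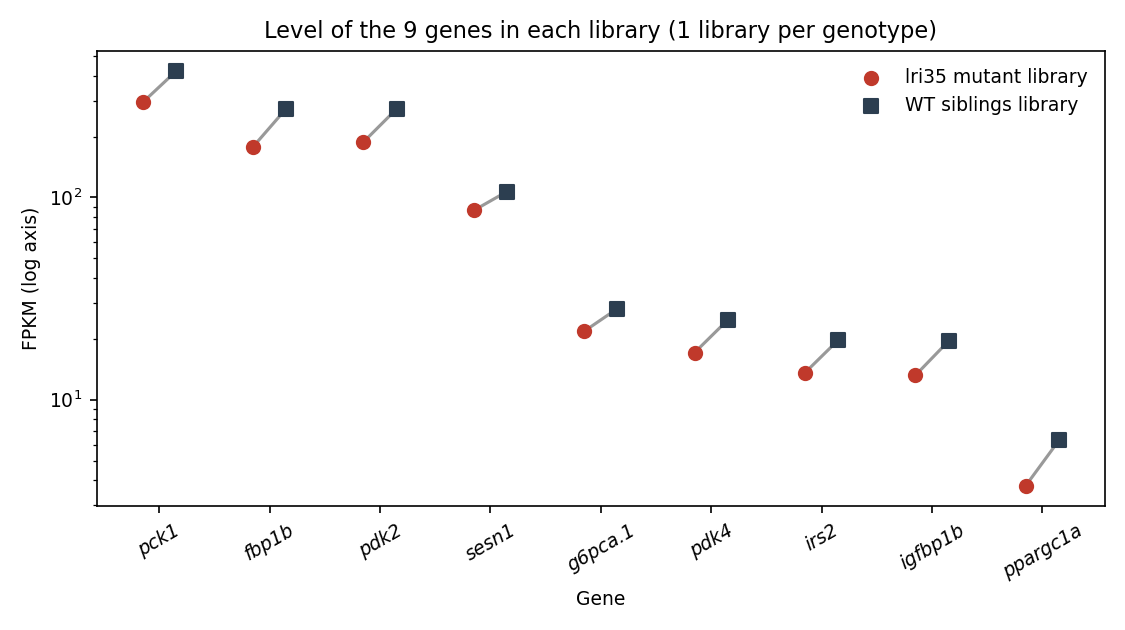
FPKM (vertical log axis) of each of the 9 genes in the lri35 mutant library (red circles) and the library of wild-type siblings (dark squares), 1 library per genotype. Every circle lies below its square, and the levels span from 3.76 FPKM for ppargc1a in the mutant library to 420 FPKM for pck1 in the wild-type library.

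At a threshold of 2-fold, 0 of the 9 were lower and 0 higher, against 3.12% and 2.87% of measured genes. At a threshold of 1.5-fold, fbp1b and ppargc1a were lower, which is 2 of 9 against 9.25% of measured genes. Scatter between libraries varied with level, so each gene was also placed among genes of like level. The central range, taken as for all measured genes above, was -1.37 to 1.54 from 1 to under 5 FPKM. It was -0.84 to 0.83 from 5 to under 50 FPKM and -0.88 to 0.50 at 50 FPKM or more. Only the upper side of this range was thus narrower in the top class than in the middle one. Of 1653 measured genes averaging 50 FPKM or more, 43.4% lay below 0 and 3.75% were at least 1.5-fold lower. This class was skewed, with 62 genes at least 1.5-fold lower and 26 higher, and 34 at least 2-fold lower and 7 higher. In that class 3.51% had a log2 difference as low as that of fbp1b, 3.99% as low as that of pdk2, 4.3% as low as that of pck1 and 8.71% as low as that of sesn1. Of 9904 measured genes averaging from 5 to under 50 FPKM, 50% lay below 0 and 6.09% were at least 1.5-fold lower. The share with a difference as low was 5.57% for ppargc1a, 7.73% for igfbp1b, 8% for pdk4, 8.16% for irs2 and 14.4% for g6pca.1. For ppargc1a, at 3.76 and 6.29 FPKM, the mean lay just above the lower bound of this class, so most genes in it were more abundant. In the class below, from 1 to under 5 FPKM, 1102 of 7555 genes were at least 1.5-fold lower. At every level there were thus many other genes with differences as low as those of the 9. The authors' deposited table tested all 9 and called 0 of them, while it called 0.124% of the 14574 rows it tested. In the authors' deposited table the p-values of the 9 ran from 0.05505 for fbp1b to 0.43715 for sesn1, each with a q-value of 0.994, so 0 of 9 had an unadjusted p under 0.05, against 2.94% of tested rows.

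**Figure D2:**
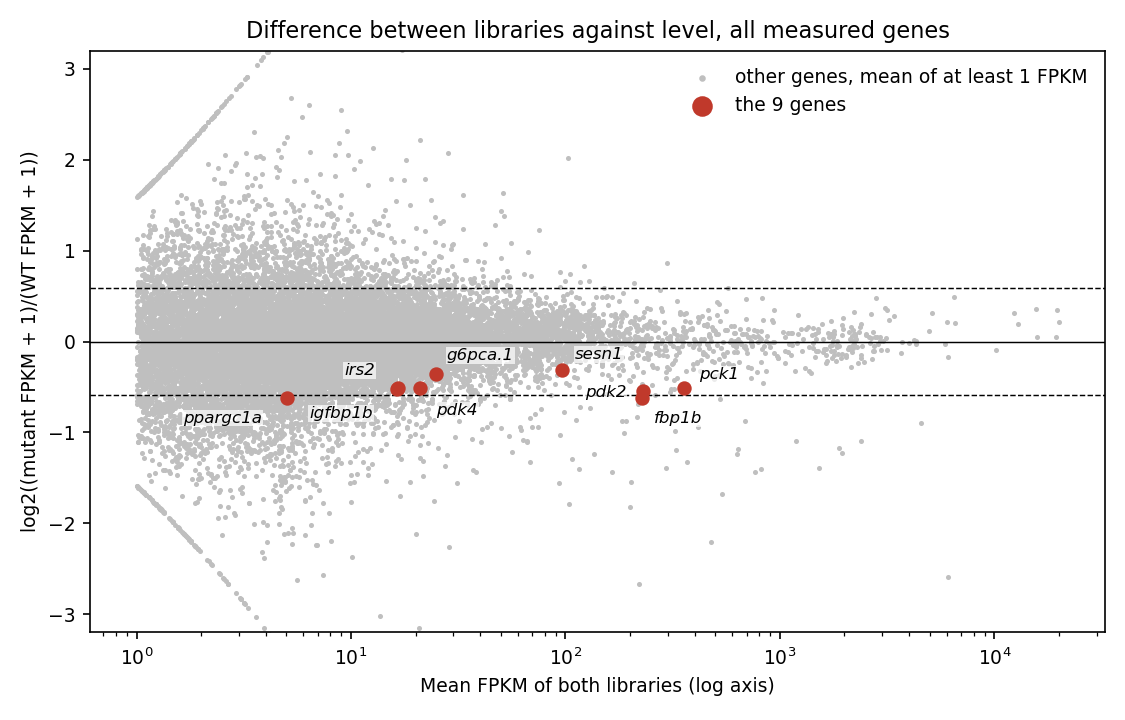
Log2 difference between the mutant and the wild-type library (vertical axis) against mean FPKM of both libraries (horizontal log axis) for all measured genes in grey and the 9 genes in red, with dashed lines at 1.5-fold; 43 genes lie beyond the vertical range of 3.2. The 9 genes lie below 0, in the lower part of the grey cloud at their level, and fbp1b and ppargc1a lie past the lower dashed line.

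The enzymes of glucose production come first. The gene pck1 encodes cytosolic phosphoenolpyruvate carboxykinase, which turns oxaloacetate into phosphoenolpyruvate early in the pathway, and is a classic target of glucagon and insulin. It is annotated on Zv9 chromosome 6 from 59719126 to 59726056 (ENSDARG00000013522). Its level was 295 FPKM in the mutant library and 420 FPKM in the wild-type library, 1.42-fold lower, which was the highest level of the 9 genes in both libraries. The mitochondrial isoenzyme gene pck2 stood at 70.9 FPKM in the mutant library and 66.5 FPKM in the wild-type library. As a result pck1 held 80.6% of the FPKM of both carboxykinase genes in the mutant library and 86.3% in the wild-type library.

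Fructose bisphosphatase removes a phosphate from fructose bisphosphate further along the pathway, against the direction of glycolysis. Its gene fbp1b (Zv9 chromosome 5, 37076087 to 37105851, ENSDARG00000020364) stood at 178 FPKM in the mutant library and 275 FPKM in the wild-type library, 1.54-fold lower. Its paralog fbp1a was at 24 FPKM in the mutant library and 23.1 FPKM in the wild-type library. The third gene, fbp2, whose mammalian counterpart is the muscle isoenzyme, went the other way, with 88.4 FPKM in the mutant library and 65.7 FPKM in the wild-type library, 1.35-fold higher. Over the 3 genes the sum was 291 FPKM in the mutant library and 364 FPKM in the wild-type library, and the share of fbp1b was 61.4% and 75.6%. The region given for fbp1b also holds 2 rows of erlin2, the larger (symbol ERLIN2) at 13.1 FPKM in the mutant library and 14 FPKM in the wild-type library.

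Glucose-6-phosphatase releases free glucose in the last step. The gene g6pca.1, which encodes a catalytic subunit, lies on Zv9 chromosome 12 from 6706990 to 6717343 (ENSDARG00000031616). It stood at 21.8 FPKM in the mutant library and 28.2 FPKM in the wild-type library, 1.3-fold lower. Most of the family's FPKM belonged to its paralog g6pca.2, with 142 FPKM in the mutant library and 161 FPKM in the wild-type library, 1.13-fold lower. The share of g6pca.1 in the family was 13.1% in the mutant library and 14.7% in the wild-type library, so the gene named here is the minor one of these 2. The remaining subunit genes were scarce, g6pcb at 0.51 FPKM in the mutant library and 1.92 FPKM in the wild-type library and g6pc3 at 1.28 and 0.999 FPKM. The sources used here do not give how reads shared by near-identical paralogs were assigned, so the split among g6pc genes is uncertain.

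Pyruvate dehydrogenase kinases switch off the enzyme complex that turns pyruvate into acetyl-CoA. The gene pdk2 (Zv9 chromosome 19, 6297799 to 6310636, ENSDARG00000059054) was the main kinase gene in these larvae, at 188 FPKM in the mutant library and 274 FPKM in the wild-type library, 1.46-fold lower. The gene pdk4, strongly induced by fasting in mammalian muscle and heart, lies on the same chromosome from 42150883 to 42174178 (ENSDARG00000054848). It stood at 17.1 FPKM in the mutant library and 24.8 FPKM in the wild-type library, 1.45-fold lower. These kinase genes thus differed by nearly the same ratio, at levels that were far apart.

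The other kinase genes did not all share that direction. The row PDK2 (1 of 2) was at 69.1 FPKM in the mutant library and 85.2 FPKM in the wild-type library, and pdk3a at 7.39 and 9.09 FPKM. In contrast pdk1, a hypoxia-responsive kinase gene in mammals, stood at 10 FPKM in the mutant library and 6.48 FPKM in the wild-type library, 1.55-fold higher as a plain ratio and 0.56 as a log2 difference, which is just under 1.5-fold on that scale and past it at 0.62 with a pseudocount of 0.1 FPKM. The gene pdk3b was listed at 0 in both libraries. Summed over all 6 genes, kinase FPKM was 291 in the mutant library and 399 in the wild-type library, 1.37-fold lower, with pdk2 at 64.5% and 68.6% of the sum.

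The coactivator PGC-1 alpha, encoded by ppargc1a, joins transcription factors on genes of mitochondria and, in mammalian liver, of gluconeogenesis. The gene (Zv9 chromosome 7, 73134951 to 73225368, ENSDARG00000067829) had the lowest level and the largest plain ratio of the 9, at 3.76 FPKM in the mutant library and 6.29 FPKM in the wild-type library, 1.67-fold lower. At this level the pseudocount matters, and with a pseudocount of 5 FPKM its log2 difference was -0.37 in place of -0.62, no longer past 1.5-fold. The related ppargc1b stood at 12.5 FPKM in the mutant library and 13.8 FPKM in the wild-type library, and pprc1 at 7.98 and 7.45 FPKM. Within this family ppargc1a held 15.5% of FPKM in the mutant library and 22.9% in the wild-type library.

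The remaining genes tie nutrient state to growth. Insulin receptor substrate 2 relays the insulin signal inside the cell, and in mammalian liver its gene is raised by fasting. The gene irs2 (Zv9 chromosome 9, 8474627 to 8495692, ENSDARG00000075282) stood at 13.6 FPKM in the mutant library and 19.7 FPKM in the wild-type library, 1.45-fold lower. A separate row with the symbol IRS2, on another chromosome and not one of the 9, was at 21.6 FPKM in the mutant library and 24.5 FPKM in the wild-type library. Each of the 5 substrate genes had a lower value in the mutant library, with irs4a at 3.71 and 5.43 FPKM, IRS4 (1 of 2) at 12.4 and 15.8 FPKM and irs1 at 3.15 and 3.41 FPKM. The ratios of IRS2 and irs1 were small, 1.13-fold and 1.08-fold. Of all measured genes 50.9% lay below 0, and the family was assembled after the values were seen, so the shared direction is a description only.

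The secreted protein IGFBP1 binds insulin-like growth factors and limits their action, and its level rises with fasting and hypoxia in fish and mammals. The gene igfbp1b (Zv9 chromosome 2, 167257 to 170770, ENSDARG00000038666) stood at 13.2 FPKM in the mutant library and 19.5 FPKM in the wild-type library, 1.47-fold lower. Its more abundant paralog igfbp1a was at 84.7 FPKM in the mutant library and 76.1 FPKM in the wild-type library, 1.11-fold higher. The sum of both was therefore nearly equal, 97.9 FPKM in the mutant library and 95.6 FPKM in the wild-type library, while igfbp1b held 13.5% of it in the mutant library and 20.4% in the wild-type library.

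Sestrins restrain TOR complex 1, a growth-promoting kinase complex, when amino acids are scarce. The gene sesn1 (ENSDARG00000020693) stood at 86.3 FPKM in the mutant library and 107 FPKM in the wild-type library, 1.24-fold lower and the smallest difference of the 9. Its region on Zv9 chromosome 20, from 32191235 to 32309747, also holds armc2, which stood at 36.7 FPKM in the mutant library and 44.9 FPKM in the wild-type library, a log2 difference of -0.29 beside -0.31 for sesn1. Values of rows over 1 region can be traded in the assignment of reads, so the value of sesn1 is uncertain. The other sestrin genes were at 11.1 FPKM in the mutant library and 9.73 FPKM in the wild-type library for sesn2, and at 12.3 and 13.8 FPKM for sesn3.

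Ordered by level, the wild-type library ran pck1, fbp1b, pdk2, sesn1, g6pca.1, pdk4, irs2, igfbp1b and ppargc1a. The mutant library kept that order apart from fbp1b and pdk2, which changed places, at 178 and 188 FPKM there and 275 and 274 FPKM in the wild-type library. Neighbours such as irs2 and igfbp1b, and also fbp1b and pdk2, were too close to order without replicates. Among all measured genes pck1 ranked 345th in the mutant library and 296th in the wild-type library, and ppargc1a 13131st and 10157th.

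Across the 8 gene families from which the 9 come, 19 other genes were listed, and 18 of them were measured. These families were assembled after the values were seen. Of the 18, 10 lay below 0 and 8 above 0, with a median log2 difference of -0.11, and 1, the scarce g6pcb, was at least 1.5-fold lower. A test of each gene against its paralogs was not possible with these libraries, and the choice of the 9 with results known favours such a contrast.

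**Figure D3:**
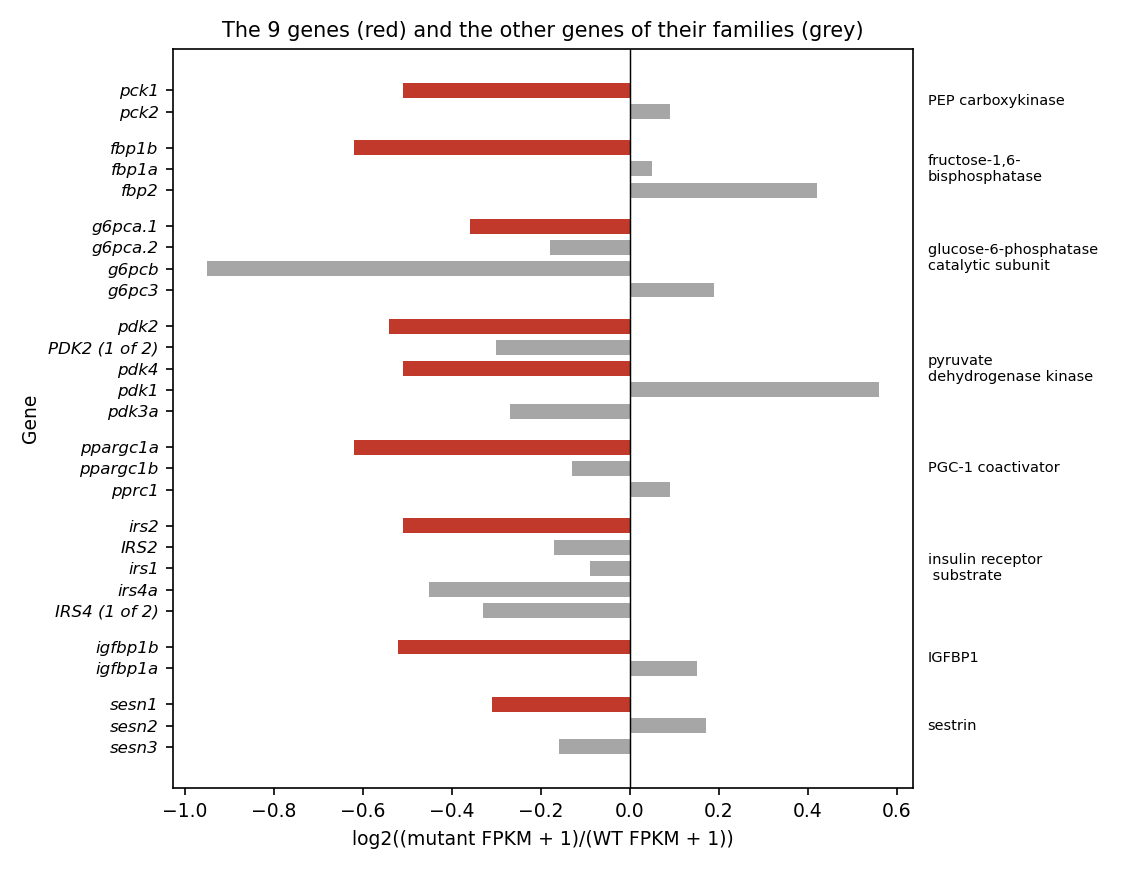
Log2 difference between the mutant and the wild-type library (horizontal axis) for the 9 genes (red bars) and the other measured genes of their families (grey bars), grouped by family, 1 library per genotype. Red bars run from -0.62 to -0.31, while grey bars lie on both sides of 0, with fbp2 at 0.42 and pdk1 at 0.56 on the right and g6pcb at -0.95 on the left.

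The wider pathways were described with 7 gene lists, counted at 1.5-fold among measured genes, where 9.25% of all were lower and 7.97% higher. Of 25 glucose production genes, 2 (fbp1b and g6pcb) were at least 1.5-fold lower and 0 higher, with a median log2 difference of -0.16. Without the 3 of them described above the median of the other 22 was -0.09, with 12 below 0. Genes of malate dehydrogenases, which interconvert malate and oxaloacetate, were the most abundant of the list. The cytosolic mdh1aa stood at 435 FPKM in the mutant library and 566 FPKM in the wild-type library, and the mitochondrial mdh2 at 431 and 482 FPKM.

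Genes of the pyruvate dehydrogenase complex, its kinases and the mitochondrial pyruvate carrier had 0 of 14 past 1.5-fold in either direction and a median log2 difference of 0.04. Leaving out pdk2 and pdk4, 4 of 12 lay below 0. The abundant kinase row PDK2 (1 of 2), with a log2 difference of -0.30, was not matched to this list. Beside pdk2 the most abundant by the mean of both libraries was mpc1, a pyruvate carrier gene in a region shared with another row, at 131 FPKM in the mutant library and 140 FPKM in the wild-type library. The other carrier gene, mpc2, was close to it at 152 FPKM in the mutant library and 118 FPKM in the wild-type library. The genes of the complex on which pdk2 and pdk4 act thus lay on both sides of 0.

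Transcription regulators of the fasting response had a median log2 difference of -0.10 over 30 genes, with 2 at least 1.5-fold lower and 3 higher. The lower ones were ppargc1a and FOXO6 (1 of 2), a forkhead factor gene, at 1.68 FPKM in the mutant library and 3.65 FPKM in the wild-type library. The higher ones were the CREB coactivator genes crtc1b, at 10.7 FPKM in the mutant library and 1.12 FPKM in the wild-type library, and CRTC2 (1 of 2), at 3.05 and 1.65 FPKM, and creb3l3a at 2.28 and 0.619 FPKM. All but crtc1b were low in both libraries. The abundant regulators were cebpb, which stood at 106 FPKM in the mutant library and 82.2 FPKM in the wild-type library, and the forkhead gene foxo3b, at 49.7 and 59.7 FPKM.

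Insulin and IGF signalling genes had a median log2 difference of -0.17 over 28 genes, with 3 at least 1.5-fold lower and 0 higher. The 3 were the receptor gene igf1ra, at 4.82 FPKM in the mutant library and 8.15 FPKM in the wild-type library, the binding protein gene igfbp2b, at 4.09 and 7.11 FPKM, and the growth factor gene igf1, at 0.908 and 1.91 FPKM. Insulin itself (ins) stood at 77.3 FPKM in the mutant library and 86.7 FPKM in the wild-type library. The substrate rows IRS2 and IRS4 (1 of 2), with log2 differences of -0.17 and -0.33, were not matched to the insulin and IGF list. The list of sestrins and TOR complex 1 had a median of -0.16 over 24 genes, with 2 lower and 0 higher. The 2 were tsc1a, a TOR complex 1 inhibitor gene, at 6.44 FPKM in the mutant library and 12 FPKM in the wild-type library, and nprl2, of an amino acid sensing complex, at 7.27 and 11.7 FPKM. The count of lower genes was 5 with a pseudocount of 0.1 FPKM, 0 with one of 5 FPKM, and 1 when libraries were scaled on totals that left out the top 50 symbols, where nprl2 was at -0.58. Of all measured genes, 12.6%, 2.78% and 8.65% were at least 1.5-fold lower under these settings. The abundant translation repressor gene eif4ebp3l stood at 124 FPKM in the mutant library and 185 FPKM in the wild-type library, while eif4ebp2 was at 150 and 139 FPKM.

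The list of glucagon response and glucose sensing had a median log2 difference of -0.16 over 13 genes, with 3 at least 1.5-fold lower and 1 higher. The row CABZ01066502.1, whose Ensembl ID is now named for PKLR, the liver and red cell pyruvate kinase of glycolysis, stood at 23.4 FPKM in the mutant library and 50.2 FPKM in the wild-type library. Its log2 difference of -1.07 was the only one of measured genes of the 7 lists past 2-fold lower on that scale. Past 2-fold higher on it were 2 measured genes, the fasting regulators crtc1b and creb3l3a. As plain ratios, which count low genes in full, CABZ01066502.1 was 2.15-fold lower. The genes g6pcb, FOXO6 (1 of 2), igf1 and pfkfb2b were also past 2-fold lower as plain ratios. Those past 2-fold higher as plain ratios were crtc1b at 9.58-fold, creb3l3a at 3.69-fold and gcgrb at 2.47-fold. Also at least 1.5-fold lower in the glucagon list was pfkfb2b, at 3.11 FPKM in the mutant library and 6.49 FPKM in the wild-type library. It belongs to the enzyme family that sets the flow between glycolysis and gluconeogenesis. The glucagon receptor gene gcgra was lower too, at 3.48 and 5.95 FPKM. The other receptor gene, gcgrb, was the higher one, at 2.19 FPKM in the mutant library and 0.889 FPKM in the wild-type library. The most abundant of the list were txnipa, an inhibitor gene of glucose uptake, at 230 FPKM in the mutant library and 257 FPKM in the wild-type library, and pfkfb4l, at 63.4 and 77 FPKM. Glycogen enzymes had 0 of 18 past 1.5-fold and a median of -0.12, with the abundant pgm1 at 44.9 FPKM in the mutant library and 58.8 FPKM in the wild-type library and the muscle glycogen phosphorylase gene pygmb at 41.8 and 43.4 FPKM. Among list genes named as past 1.5-fold, the authors' deposited table left g6pcb, igf1, CRTC2 (1 of 2), creb3l3a and gcgrb untested. It tested the others and did not call them.

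**Figure D4:**
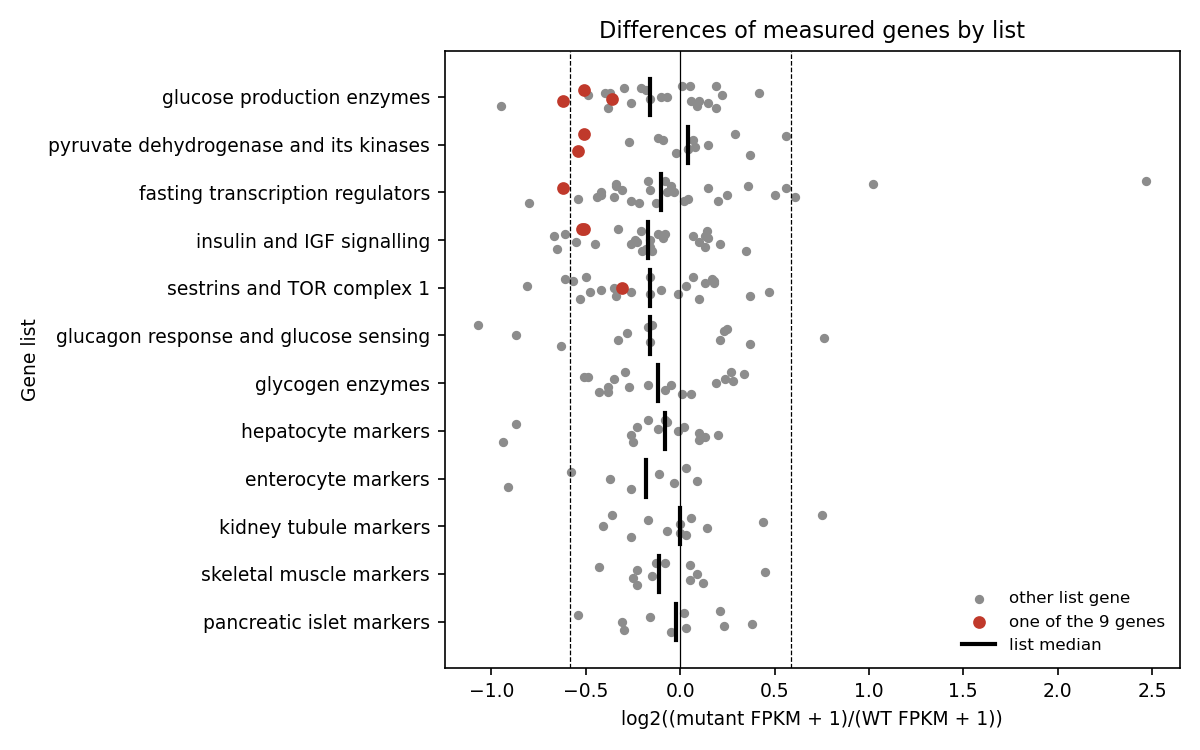
Log2 difference between the mutant and the wild-type library (horizontal axis) for the measured genes of 7 pathway lists and 5 tissue marker lists (rows), with the 9 genes in red, other genes in grey, list medians as black bars and dashed lines at 1.5-fold. List medians lie between -0.18 and 0.04, and the red points lie between -0.62 and -0.31.

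Tissue markers were set beside these values, because liver, gut, kidney and muscle all use genes of this group. Of all measured genes, 9.25% were at least 1.5-fold lower, 7.97% were higher and 50.9% lay below 0. The marker counts below were made on the log2 scale, so some markers past 1.5-fold as plain ratios are not counted. Of 15 hepatocyte markers, 2 were at least 1.5-fold lower and 0 higher, with a median log2 difference of -0.08 and a summed level of 10431 FPKM in the mutant library and 10258 FPKM in the wild-type library. The 2 were the liver fatty acid binding protein gene fabp10a, at 485 FPKM in the mutant library and 887 FPKM in the wild-type library, and the thyroid hormone carrier gene ttr, at 47.3 and 92 FPKM. The sum was mostly apoa2, which stood at 7038 FPKM in the mutant library and 6125 FPKM in the wild-type library. Next was the retinol carrier gene rbp4, in a region shared with other rows, at 1529 and 1659 FPKM. Of the 15 markers 10 lay below 0 and 5 above, so the higher sum in the mutant library rests on apoa2 and not on most markers. Of 8 enterocyte markers, 1, the peptide transporter gene slc15a1b, was lower (15 FPKM in the mutant library and 29.1 FPKM in the wild-type library), with a list median of -0.18 and a summed level of 1196 FPKM in the mutant library and 1357 FPKM in the wild-type library. Its most abundant genes were fabp2, at 548 FPKM in the mutant library and 655 FPKM in the wild-type library, and apoa4, at 503 and 516 FPKM.

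Kidney tubule markers had a median log2 difference of -0.00, with 0 of 12 lower and 1 higher, and summed to 187 FPKM in the mutant library and 193 FPKM in the wild-type library. The higher one was the water channel gene aqp8b, summed over 2 rows in a region shared with others, at 7.33 FPKM in the mutant library and 3.95 FPKM in the wild-type library. The most abundant were cdh17, at 51.5 FPKM in the mutant library and 54 FPKM in the wild-type library, and slc20a1a, at 32.9 and 31.5 FPKM. Skeletal muscle markers, with 0 of 12 past 1.5-fold, had a median of -0.11, with 7 below 0 and 5 above. They summed to 52549 FPKM in the mutant library and 51980 FPKM in the wild-type library. That sum was led by the parvalbumin genes pvalb2, at 19684 and 19054 FPKM, and pvalb1, at 16025 and 15458 FPKM. Pancreatic islet markers, with 0 of 10 past 1.5-fold, summed to 214 FPKM in the mutant library and 221 FPKM in the wild-type library, with ins as above and the somatostatin gene sst2 at 27.1 and 26.6 FPKM. The part of tissue makeup in the values of the 9 genes was not tested.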

How the data were processed

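RNA of whole larvae was extracted with a column kit and sequenced from standard Illumina libraries, per the labels' protocols. CASAVA, Bowtie and the build Zv9 appear, without versions or roles, in the submitters' processing notes. The authors deposited 1 table of 33733 Ensembl genes. Its unit is stated nowhere; the deposited values were read as FPKM because columns and status words match a Cuffdiff table. The p-values and q-values are the authors', from the deposited table, and compare 2 libraries. Coordinates are the table's own. Shared regions are given above for fbp1b, sesn1, mpc1, rbp4 and aqp8b. The named genes fbp1a, fbp2, ppargc1b, foxo3b, igf1ra, gcgra and sst2 also lie in regions shared with other rows. Values of all these genes are uncertain in the way given for sesn1.

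Rows sharing a symbol were summed with pandas 2.3.3. Log2 differences used a pseudocount of 1 FPKM, which understates changes of low genes, and only genes averaging at least 1 FPKM were counted. Counts past 1.5-fold or 2-fold used that scale unless a plain ratio or another setting is named. Some genes past 1.5-fold as plain ratios, in both directions, were therefore not counted. No test across samples was possible and none was computed; the calculation was checked on simulated data. List genes were matched by symbol or by the current name of their Ensembl ID (21934 of 33733 IDs had one); 22 of 181 listed symbols had no match. The 9 genes and all lists were chosen with earlier results of these data known. Named genes are the 9, their families, up to 4 genes per pathway list past 1.5-fold in each direction and the 2 most abundant of each; of marker lists the 2 most abundant, with those past 1.5-fold named after their values were seen. No gene was sought for a like pattern, since 2 libraries give none. Alternatives changed the pseudocount, scaling, filter, handling of shared symbols and matching.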

Additional observations from a re-analysis of the deposited data

How the results depend on the processing

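No paired analysis was possible because each genotype had 1 library. Under 5 alternatives of pseudocount, scaling and row handling, the 45 values of the 9 genes lay between -0.73 and -0.28 on the log2 scale. Of these, 1 changed its side of 1.5-fold, ppargc1a with a pseudocount of 5 FPKM. That all stayed negative was largely fixed in advance. A pseudocount cannot change a sign, and row handling cannot alter genes with 1 row each. Only the scalings could have changed a sign, and each moves all genes by the same factor. The share of all genes past 2-fold, 5.99%, was 10.3% with a pseudocount of 0.1 FPKM, 1.12% with a pseudocount of 5 FPKM and 3.05% with a mean of at least 5 FPKM. At 1.5-fold, 17.2% of genes were past the threshold. This share was 23.6% with a pseudocount of 0.1 FPKM, 5.25% with one of 5 FPKM, 10.9% with a mean of at least 5 FPKM and 15.7% with no filter. Over the 7 pathway lists 16 genes were past 1.5-fold. Under the same alternatives, in that order, the list genes numbered 23, 3, 8 and 18. With a pseudocount of 5 FPKM the lower genes numbered 1 of glucose production, 0 of the fasting regulators, 0 of insulin and IGF signalling and 1 of the glucagon list, and the higher ones 1 of the fasting regulators and 0 of the glucagon list. Of all measured genes, 2.78% were at least 1.5-fold lower with that pseudocount. A larger pseudocount shrinks low values by construction. The median over measured genes was 0.02 when libraries were scaled on totals that left out the top 50 symbols, and no pathway list median then changed its sign. Under that scaling pdk1 stood at 0.59 and, with a pseudocount of 0.1 FPKM, at 0.62, both past 1.5-fold. Choices added after the data were seen (matching by deposited symbol only, lists without the 9 genes, the 9 without fbp1b and sesn1) gave 13 and 14 list genes and a median of -0.51. That median could not change, because fbp1b lay below the median of the 9 and sesn1 above it. Depth limits the low genes most, and without counts or replicates no error can be given.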
